A study of Mus musculus with 48 samples.

Results

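The comparison described here is that of DKO against WT mouse embryonic fibroblasts (MEFs) on day 4 of adipogenic differentiation. MEFs are connective tissue cells grown out of embryos, and hormones can turn a part of them into adipocytes. The samples were chosen by their labels, 3 DKO and 3 WT libraries of day 4, which are 6 of the 48 libraries of the series and 6 of its 24 MEF libraries. DKO cells carry germline deletions of Hmgn1 and Hmgn2 (Hmgn1-/- Hmgn2-/-) and WT cells carry neither, and both come from embryos. The paper lists the WT mice as C57BL/6 and the DKO mice as a B6.Cg line. Whether their backgrounds are alike apart from the deletions was not tested. The cells of both genotypes were grown past confluence and had then received 4 of their 8 days in a differentiation medium with insulin, dexamethasone, IBMX, T3 and rosiglitazone. Day 4 cells are thus at an intermediate stage, and the medium of all 6 cultures is the same. The libraries held between 20871043 and 33026044 summed counts. Nothing in the labels says whether the 3 libraries of a genotype come from separate embryos, so the tests below measure the spread between these libraries.

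HMGN1 and HMGN2 are small abundant proteins that bind to the nucleosome, the unit of packed DNA, without preference for sequence. They are found at enhancers and promoters in open chromatin and compete with linker histone there. Adipogenesis in cultured fibroblasts begins with a phase of cell division and a change of transcription factors. Pparg and Cebpa, the main transcription factors of fat cells, then switch on the genes of lipid uptake, lipid synthesis and lipid droplets. Brown and beige adipocytes also make the uncoupling protein Ucp1, with which mitochondria release heat.

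The libraries of day 4 did not group by genotype on their main axis of variation. In a principal component analysis of these 6 libraries alone, PC1 held 54.7% of the variance. On it WT replicate 1 (-26.8) lay with DKO replicate 3 (-40.0) and far from WT replicates 2 and 3 (31.6 and 31.4). On PC2 (21.3%) all WT libraries (-14.0 to -11.5) lay below all DKO libraries (-0.23 to 35.3). In a principal component analysis of the 24 MEF libraries, WT replicate 1 and DKO replicate 3 of day 4 lay apart from the other 4 and toward the libraries of day 8. WT replicate 2 and DKO replicate 3 of day 8 in turn lay toward those of day 4, which touches the values given for day 8. Across genes, the counts of WT replicate 1 differed from those of WT replicates 2 and 3 by 94.7 and 96.0 in chi-square per degree of freedom, whereas the latter pair differed by 7.35. WT replicate 1 and DKO replicate 3, of opposite genotypes, differed by 19.1. The 3 pairs of DKO libraries differed by 38.9 to 85.8. Where a value moved with these libraries it is also given without 1 or both of them, and the choice to leave out both was made after the data were seen. The cause of this split was not tested. Whether labels were exchanged between libraries of days 4 and 8 was not tested either, and all values are given by the labels as deposited. Fibroblast markers were present throughout, with all 6 of the fixed markers (Pdgfra, Pdgfrb, Thy1, Col1a1, Col1a2 and Vim) above 1 CPM in every library (counts per 1000000 counts of a library). The 4 macrophage markers (Ptprc, Adgre1, Csf1r and Cd68) were above 1 CPM in every library too, with summed levels of 394 to 425 CPM in the WT and 332 to 386 CPM in the DKO libraries. Xist, made by the inactive X chromosome, stood at 1384 to 1732 CPM in all 6 libraries. The Y-linked genes Ddx3y, Eif2s3y, Kdm5d and Uty had no count in any of the 6.

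**Figure D1:**
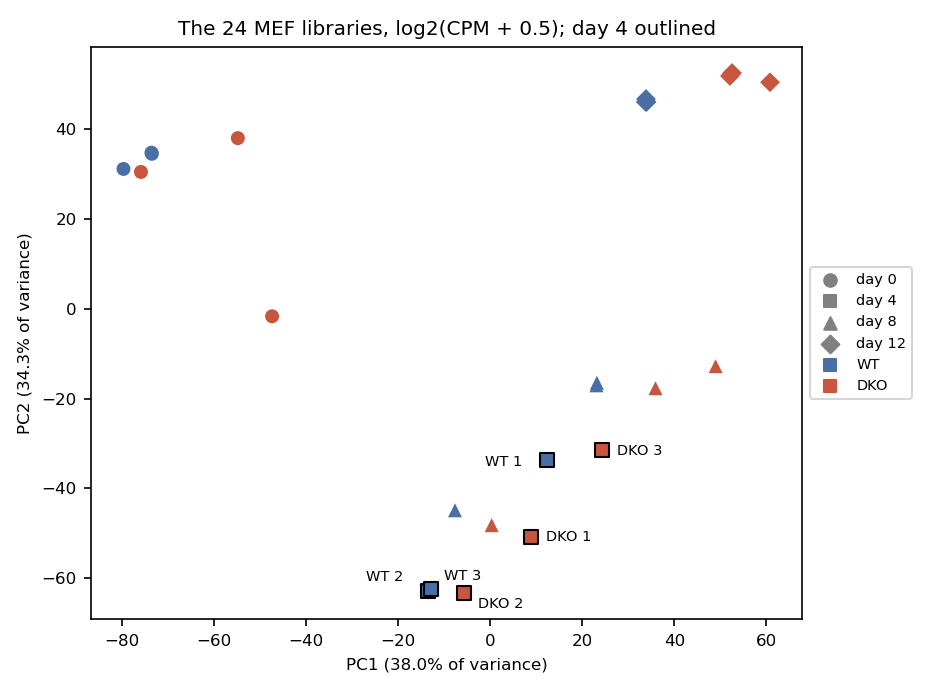
Principal components of the 24 MEF libraries, from log2(CPM + 0.5), with PC1 (38.0% of the variance) and PC2 (34.3%) on the axes, 1 point per library, the shape giving the day and the colour the genotype. The day 4 libraries are outlined and named, and WT replicate 1 and DKO replicate 3 lie apart from the other 4 on PC2.

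DKO and WT cells of day 4 differed in few genes beyond the spread of the libraries. Of 15475 genes with enough counts to be tested, 14 (0.0905%) were called different by edgeR's quasi-likelihood test, at a Benjamini-Hochberg adjusted p under 0.05 and at least a 1.5-fold difference. A total of 3 genes (0.0194%) rose in DKO cells and 11 (0.0711%) fell. Both deleted genes are among those that fell. DESeq2 called 91 genes (0.588%). An unadjusted p under 0.05 was reached by 915 genes (5.91%). The 3 DKO libraries lay above all 3 WT libraries for 863 genes (5.58%) and below them for 923 (5.96%). Without WT replicate 1, 7 of 15794 genes rose (0.0443%) and 12 fell (0.076%), and all 14 genes named here were among these 19. Without both WT replicate 1 and DKO replicate 3, 118 of 15534 genes rose (0.76%) and 56 fell (0.36%), again with all 14. Leaving out other libraries cost calls, and of the 14 genes 6 stayed called without WT replicate 2, 5 without WT replicate 3, 9 without DKO replicate 1, 10 without DKO replicate 2 and 9 without DKO replicate 3. The 5 genes called in all of these refits were Hmgn2, Gm8730, Gm9625, Gm3375 and Gm45104.

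The targeted genes were examined before all others. Hmgn2 (ENSMUSG00000003038.15, chr4:133964738-133968650, mm10, minus strand) stood at 173, 198 and 191 CPM in WT replicates 1, 2 and 3. In the DKO libraries it had 0, 0 and 1 count. That is a ratio of 13920 with an exact Poisson interval of 2498 to 549828 (95%, counting error only), and the adjusted p was 5.95e-06. Hmgn1 (ENSMUSG00000040681.16, chr16:96120618-96127729, minus strand) stood at 175, 218 and 198 CPM in WT cells and at 94.4, 77.7 and 97.0 CPM in DKO cells. Every DKO library was thus below every WT library, but Hmgn1 reads were not lost. Its log2 fold change was -1.14 ± 0.13 (SE, adjusted p = 0.039), and with the 5 other single libraries left out in turn, WT replicate 1 excepted, the adjusted p rose to between 0.0724 and 0.294. It was also above the threshold with scaling by library size alone (0.0507), with limma-voom (0.0593) and with the replicate number as a block (0.634). Counts per gene do not show which exons the remaining Hmgn1 reads came from. On the other days the log2 fold change of Hmgn1 was -0.62 (day 0), -0.78 (day 8) and -0.29 (day 12). The remaining tested members of the family were not called. The log2 fold changes were -0.06 for Hmgn3 (adjusted p = 0.963) and 0.53 for Hmgn5, on the X chromosome (adjusted p = 0.504). None of the 69 tested genes within 10 Mb of Hmgn1 and none of the 249 within 10 Mb of Hmgn2 was called by edgeR, apart from the targets. As only 0.0905% of all genes were called, this says little about these regions. DESeq2 called 1 of the 69, Cbr3, and 0 of the 249.

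Of the 14 called genes, 8 are near-identical copies of an expressed gene elsewhere in the genome. Processed pseudogenes are such copies, made when an mRNA is written back into DNA, and they lack the introns of the parent. The copies matter for how the counts are read. The reads were 50 bases long. A read that matches both the parent and a copy is divided between them by RSEM, the program with which the counts were estimated. Reads with a differing base can be told apart. The sequences below are stretches of 50 bases, as long as a read, from exons of the parent genes and from the matching part of the copies (mm10, GENCODE M21, each on the strand of its gene, 5′ to 3′), with the bases that differ in capitals. Rplp0 at chr5:115561124-115561173 (plus strand, exon 4), Gm8730 at chr8:102865406-102865455 (minus) and Gm9625 at chr13:67810589-67810638 (plus) show the stretch at which both copies differ from the parent in the same way.
Rplp0: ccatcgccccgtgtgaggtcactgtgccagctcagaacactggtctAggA
Gm8730: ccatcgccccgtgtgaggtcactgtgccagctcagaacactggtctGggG
Gm9625: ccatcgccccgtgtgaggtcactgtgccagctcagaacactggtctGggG
Psmb5 at chr14:54616707-54616756 (minus, exon 2) and Gm3375 at chr7:3181357-3181406 (plus) are the pair in which the copy rose.
Psmb5: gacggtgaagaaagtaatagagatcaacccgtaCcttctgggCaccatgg
Gm3375: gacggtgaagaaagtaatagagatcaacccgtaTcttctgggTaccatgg
Ublcp1 at chr11:44466846-44466895 (minus, exon 2) and Gm12663 at chr11:16635944-16635993 (minus) are told apart in this stretch by 1 base.
Ublcp1: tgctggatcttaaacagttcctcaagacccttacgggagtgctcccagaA
Gm12663: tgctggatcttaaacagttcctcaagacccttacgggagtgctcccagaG
Hmgn2 at chr4:133966430-133966479 (minus, exon 4) and Gm10282 at chr8:72305042-72305091 (minus) show a stretch that by itself does not assign a read.
Hmgn2: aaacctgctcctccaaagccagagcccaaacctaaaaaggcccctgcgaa
Gm10282: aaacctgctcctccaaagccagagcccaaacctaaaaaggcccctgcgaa

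Rplp0, a protein of the stalk of the large ribosomal subunit, has 2 copies that fell. Gm8730 (chr8:102864845-102865798, minus strand, processed pseudogene, 98.7% identical to Rplp0 over 954 bases) stood at 506, 451 and 532 CPM in WT cells and at 15.0, 13.5 and 13.0 CPM in DKO cells. Gm9625 (chr13:67810246-67811200, plus strand, 97.4% identical) stood at 121, 118 and 131 CPM in WT and at 9.11, 7.32 and 7.48 CPM in DKO cells. The 2 genotypes were far apart and the libraries of each close together, WT replicate 1 and DKO replicate 3 included. The log2 fold changes were -5.17 ± 0.12 (adjusted p = 5.95e-06) for Gm8730 and -3.95 ± 0.12 (adjusted p = 2.14e-05) for Gm9625. Of the 50-base stretches of Gm8730, 39.5% are identical to Rplp0 and 73.7% to some other gene, so a part of these counts is an estimate. Rplp0 itself went the other way, with 1162, 1066 and 1116 CPM in the WT and 1924, 2170 and 1809 CPM in the DKO libraries. It was not called by edgeR (log2 fold change 0.81 ± 0.12, adjusted p = 0.106) but was called higher by DESeq2 (adjusted p = 4.33e-10). The copies took 36.1% ± 1.4 (SD, n = 3) of the summed level of Rplp0 and its copies in WT cells and 1.27% ± 0.19 in DKO cells. The sum itself was 1745 ± 88 CPM in the WT and 1993 ± 184 CPM in the DKO libraries, a much smaller relative difference than that of either part. In an exact permutation test the sum reached p = 0.1, the smallest value that 3 against 3 libraries allow.

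Psmb5, which encodes the proteasome subunit with chymotrypsin-like activity, showed the opposite arrangement. Its copy Gm3375 (chr7:3181093-3181888, plus strand, processed pseudogene, 98.9% identical) stood at 1.17, 1.00 and 1.11 CPM in WT cells and at 24.9, 19.4 and 24.6 CPM in DKO cells. The gene was near the bottom of the range in all WT libraries and clearly detected in all DKO libraries. The log2 fold change was 4.38 ± 0.17 (adjusted p = 9.16e-05). Psmb5 stood at 86.7, 69.5 and 74.0 CPM in WT and at 59.4, 48.8 and 58.1 CPM in DKO cells, without overlap and without being called (log2 fold change -0.47 ± 0.12, adjusted p = 0.504). The share of the copies was 1.43% ± 0.10 in WT and 29.3% ± 0.76 in DKO cells (n = 3 each). Psmb5 and its copies together came to 77.8 ± 9.0 CPM in the WT and 78.5 ± 8.9 CPM in the DKO libraries (exact permutation p = 1). Gm3375 shares 56.2% of its 50-base stretches with Psmb5.

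Hmgb1, a DNA-bending protein of another HMG family, has many copies in the mouse genome, and 2 of them fell. Gm21596 (chr2:113919247-113920562, minus strand, processed pseudogene, 99.5% identical) stood at 10.1, 9.74 and 11.0 CPM in WT and at 0.636, 0.224 and 0.409 CPM in DKO cells (a log2 difference of -4.61 ± 0.33, adjusted p = 0.00458). Gm45315 (chr7:12797529-12797861, plus strand, processed pseudogene) stood at 4.59, 4.50 and 3.59 CPM in WT cells and had no count in any DKO library. It was therefore at least 35.1-fold lower, taking the limit of 3 counts per library, with an adjusted p of 0.0141. Over 45 copies, the summed level was 21.7 ± 1.3 CPM in the WT and 4.92 ± 1.2 CPM in the DKO libraries. Hmgb1 itself stood at 200.2, 183 and 163 CPM in WT and at 244, 265 and 244 CPM in DKO cells and was not called (log2 fold change 0.46 ± 0.10, adjusted p = 0.388). Gene and copies together came to 204 ± 20 CPM in the WT and 256 ± 11 CPM in the DKO libraries. Ublcp1, a phosphatase of the nuclear proteasome, has 1 copy, Gm12663 (chr11:16635109-16636066, minus strand, processed pseudogene, 99.4% identical). Gm12663 stood at 2.45, 2.79 and 2.0 CPM in WT and at 0.170, 0.224 and 0.123 CPM in DKO cells (a log2 difference of -3.77 ± 0.35, adjusted p = 0.0153). Ublcp1 varied very little within a genotype, with 44.3, 44.4 and 43.4 CPM in WT and 63.6, 62.9 and 63.0 CPM in DKO cells. Its log2 fold change of 0.51 ± 0.07 did not pass the test (adjusted p = 0.0976). Together they came to 46.5 ± 0.95 CPM in the WT and 63.4 ± 0.38 CPM in the DKO libraries.

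The 2 remaining copies belong to Hmgn2. Gm10282 (chr8:72304110-72305260, minus strand, annotated as protein coding, 99.3% identical to Hmgn2) stood at 8.73, 8.03 and 12.8 CPM in WT cells. Gm10182 (chr9:22321105-22321377, minus strand, processed pseudogene, 100% identical) stood at 4.45, 3.53 and 4.78 CPM. Neither had a count in any DKO library, which makes Gm10282 at least 81.8-fold (adjusted p = 0.0123) and Gm10182 at least 35.3-fold lower (adjusted p = 0.0141). All 50-base stretches of Gm10182 are also found in Hmgn2, so its values in WT cells cannot be told apart from Hmgn2 reads. Of those of Gm10282 74.0% are, so a part of its counts in WT cells is an estimate. Calls on Gm10282, Gm10182, Gm45315 and Gm12663 were lost without WT replicate 2 (adjusted p = 0.0912, 0.14, 0.146 and 0.146) and without WT replicate 3 (adjusted p = 0.0638, 0.156, 0.114 and 0.0917). Gm21596 was lost without WT replicate 3 (adjusted p = 0.0637), and Gm12663 also without each DKO library, with adjusted p from 0.0501 to 0.16.

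**Figure D2:**
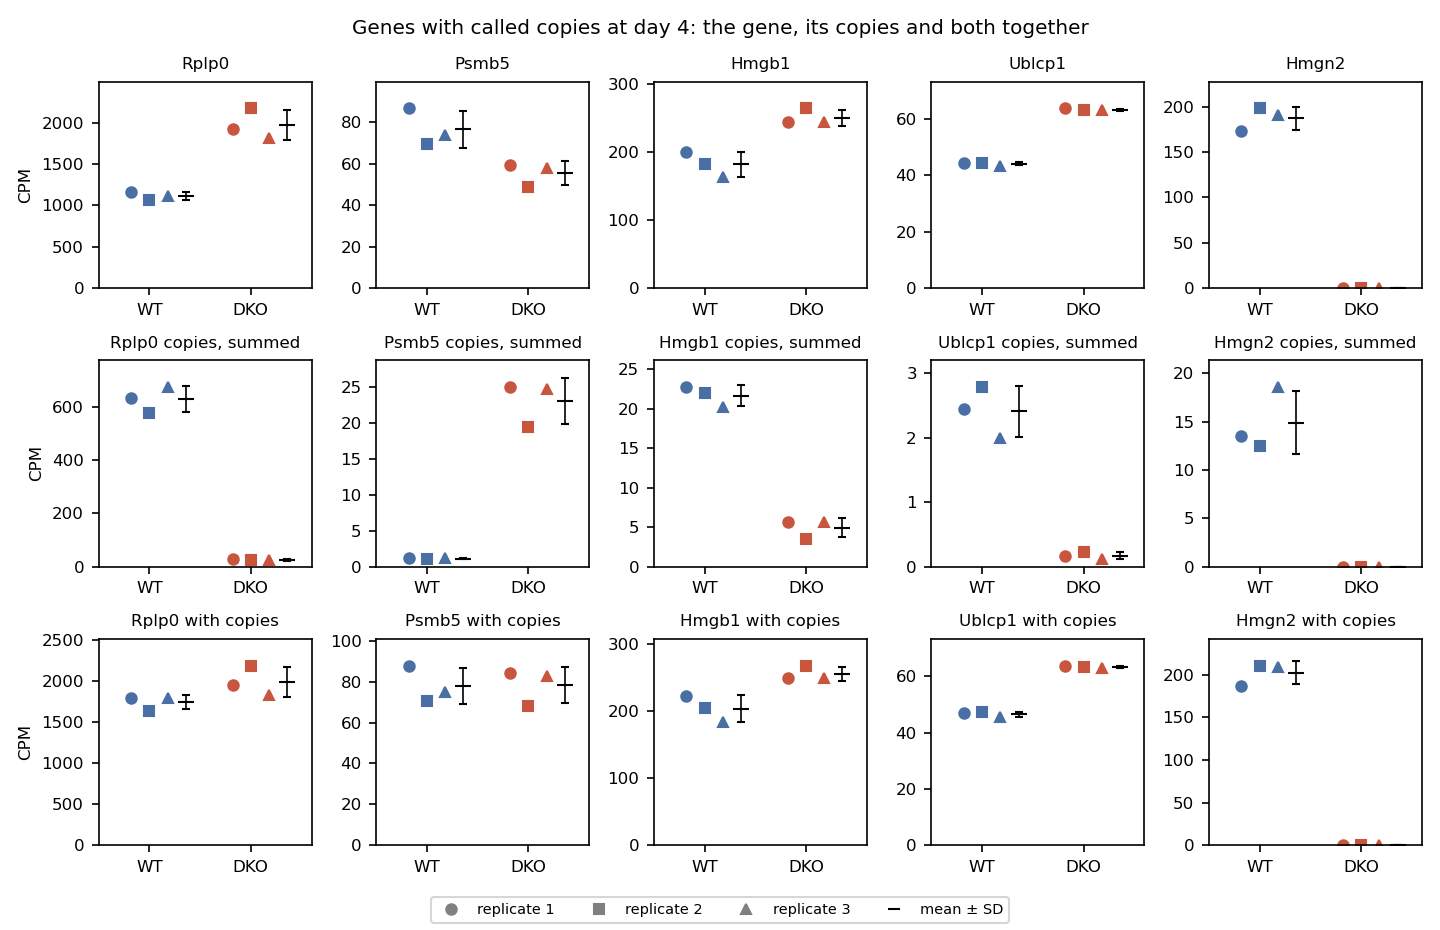
CPM of Rplp0, Psmb5, Hmgb1, Ublcp1 and Hmgn2 (top row), of their copies summed (middle) and of gene and copies together (bottom) in the 3 WT and 3 DKO libraries of day 4, with 1 marker shape per replicate number and the mean ± SD beside the points, on linear axes from 0. For Psmb5 the copies go from 1.43% to 29.3% of the sum while the sum itself stays at 77.8 and 78.5 CPM, and for Rplp0 the copies drop from 630.0 to 25.0 CPM.

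The other 4 called genes are not near-identical copies of another gene. Tmed5 (chr5:108106366-108132620, minus strand), a protein of the vesicles that carry cargo between the endoplasmic reticulum and the Golgi, was the only protein-coding gene that rose. It stood at 113, 110.2 and 98.6 CPM in WT and at 191, 212 and 201 CPM in DKO cells, so that the lowest DKO library was well above the highest WT library. The log2 fold change was 0.90 ± 0.09 (adjusted p = 0.0217), and without any 1 library other than WT replicate 1 the adjusted p was between 0.0554 and 0.232. Gm45104 (chr7:18396516-18400865, minus strand, a transcript yet to be classified in the annotation) was at the limit of detection in WT cells, with 0.057, 0 and 0.037 CPM. In DKO cells it stood at 14.9, 9.98 and 16.8 CPM. The ratio of summed counts, 1028 against 3, was 407 with an exact Poisson interval of 139 to 1978 (95%, counting error only), and the adjusted p was 0.000931. Gm26782 (chr14:50870324-50880603, plus strand, annotated as antisense) stood at 11.0, 8.81 and 7.63 CPM in WT and at 2.12, 1.76 and 2.0 CPM in DKO cells. It fell by 2.23 ± 0.20 on the log2 scale (adjusted p = 0.0141), and without any 1 library other than WT replicate 1 the adjusted p was between 0.0561 and 0.145. Capn11 (chr17:45630204-45659325, minus strand), a calpain protease known mainly from the testis, stood at 3.05, 4.24 and 5.15 CPM in WT cells and had no count in DKO cells. That is at least 34.4-fold lower (adjusted p = 0.0246), and the call was lost without WT replicate 2 (0.232), WT replicate 3 (0.186), DKO replicate 1 (0.0901) and DKO replicate 3 (0.0512).

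**Figure D3:**
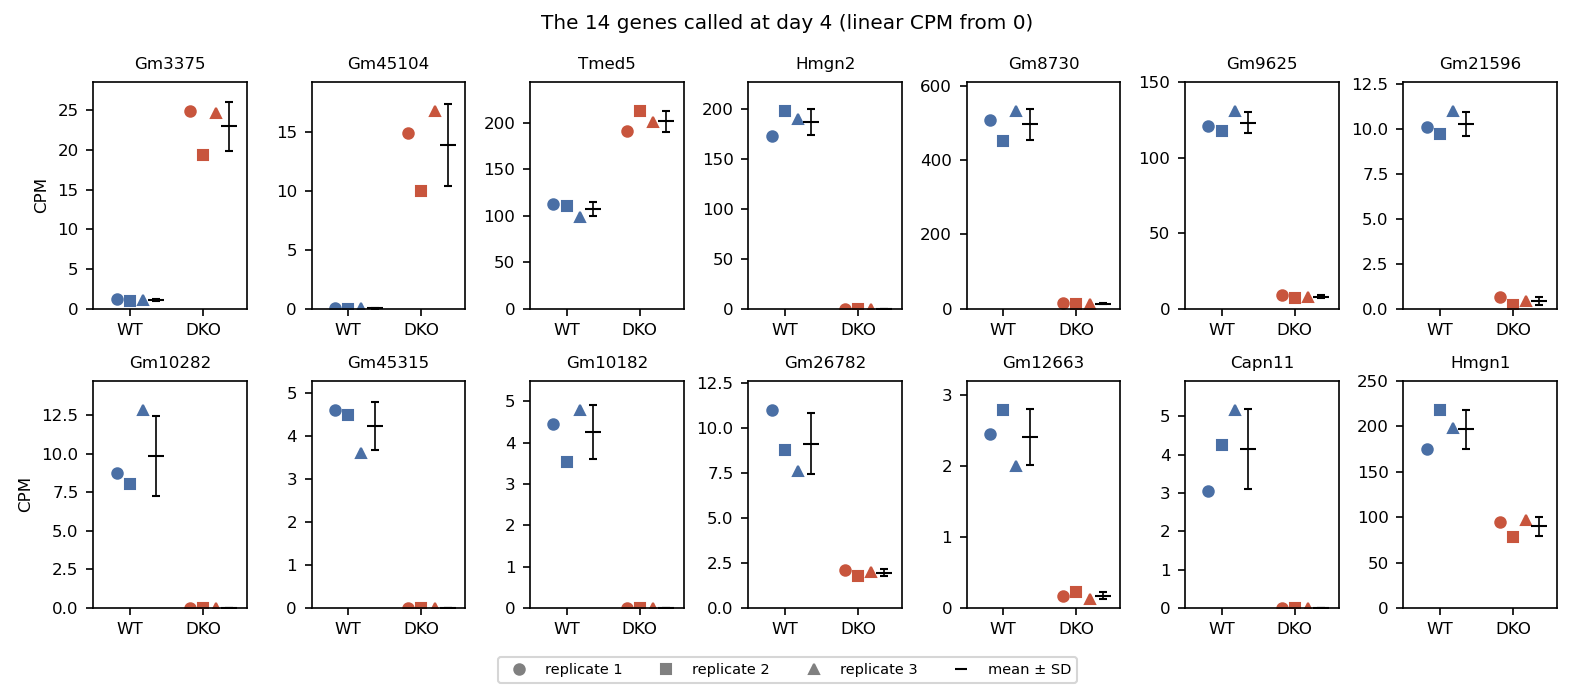
CPM of the 14 called genes in the 3 WT and 3 DKO libraries of day 4, 1 panel per gene on a linear axis from 0, with 1 marker shape per replicate number and the mean ± SD beside the points. In every panel the DKO libraries lie all above or all below the WT libraries, and WT replicate 1 and DKO replicate 3 lie with the others of their genotype.

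The same genes were looked at in the MEF libraries of the other days, each day with its own WT libraries. The labels do not say whether these come from other embryos than those of day 4. A difference that recurs over days is thus not an independent replication. Of the 14 genes called at day 4, 9 were among the 16 called at day 0 (0.102% of 15671 tested), 8 among the 9 called at day 8 (0.0595% of 15117) and 13 among the 1222 called at day 12 (7.98% of 15319). Gm8730 had log2 fold changes of -5.51, -5.33 and -5.81 at days 0, 8 and 12, close to the -5.17 of day 4. Gm3375 had 4.84, 4.70 and 4.45, and Gm26782 had -2.72, -2.67 and -2.55. Gm45104 had no count in the WT libraries of days 0 and 8 and stood at 8.32 to 13.6 CPM in the DKO libraries of days 0, 8 and 12. Tmed5 differed in the same direction on each day, by 0.81, 0.64 and 1.19. Capn11 did not keep its pattern at days 0 and 8. At day 0 it stood at 2.62, 0 and 2.10 CPM in WT and at 3.27, 0 and 0 CPM in DKO cells, and at day 8 at 2.57, 2.20 and 2.51 CPM in WT and at 3.31, 0.038 and 0 CPM in DKO cells. It was thus present in 1 DKO library on each of these days and missing from 1 WT library of day 0. Day 12 had the arrangement of day 4, with 40, 57 and 43 counts in the WT and none in the DKO libraries.

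Genes of the fat cell differed in direction but not beyond the spread of the libraries. All 35 tested members of the list of general adipocyte markers had a positive log2 fold change, with a median of 0.82 against -0.0003 over all genes tested, and none was called. None had 3 DKO libraries above all WT libraries. Fabp4, the fatty acid carrier of fat cells, stood at 1439, 216 and 201 CPM in WT and at 1018, 657 and 2125 CPM in DKO cells. Adipoq, the adipocyte hormone adiponectin, stood at 88.0, 4.83 and 3.82 CPM in WT and at 39.3, 32.4 and 136.9 CPM in DKO cells. Plin1, which coats the lipid droplet, stood at 154.9, 14.3 and 17.3 CPM in WT and at 110.3, 69.7 and 277 CPM in DKO cells. In each of the 3 genes, WT replicate 1 lay above 2 of the 3 DKO libraries while WT replicates 2 and 3 lay below all of them. The log2 fold changes were 1.03 ± 0.88 for Fabp4 (adjusted p = 0.854), 1.10 ± 1.27 for Adipoq (adjusted p = 0.878) and 1.29 ± 1.03 for Plin1 (adjusted p = 0.842).

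The size of the adipocyte difference depended on which libraries entered. The median of the list was 2.10 without WT replicate 1, with no member called, and 0.18 without DKO replicate 3. Without WT replicate 1 and DKO replicate 3 the median was 1.36, and 10 of 34 tested members were called higher, beside 0.76% of all genes. Those 10 were Fabp4, Adipoq, Plin1, Plin4, Acsl1, Adipor2, Fabp5, Gpam, Mgll and Pparg, and all 10 are genes that rose in WT cells between day 0 and day 12. Because the list was made of markers of the fat cell, that rise is no separate evidence for the calls. In that fit of 4 libraries the log2 fold changes were 2.01 ± 0.22 for Fabp4 (adjusted p = 0.0174), 3.05 ± 0.18 for Adipoq (adjusted p = 0.000629) and 2.51 ± 0.26 for Plin1 (adjusted p = 0.024). Pparg stood at 35.1, 18.8 and 18.3 CPM in WT and at 29.3, 29.5 and 39.8 CPM in DKO cells, with a log2 fold change of 0.45 ± 0.28 with all libraries (adjusted p = 0.827) and of 0.67 ± 0.11 in the fit of 4 (adjusted p = 0.0467). Cebpa stood at 150.4, 63.4 and 59.9 CPM in WT and at 119, 84.0 and 195 CPM in DKO cells (a log2 difference of 0.54 ± 0.46, adjusted p = 0.854). In the wider list of adipogenic transcription factors 15 of 31 tested members were positive, with a median of -0.0008. Since these are whole cultures, more adipocytes and more marker RNA per adipocyte cannot be told apart. The general adipocyte markers had medians of 0.11, 0.78 and 0.68 on days 0, 8 and 12. No member was called on days 0 and 8, and 22 of 36 were called higher on day 12, on which 3.92% of all genes were.

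**Figure D4:**
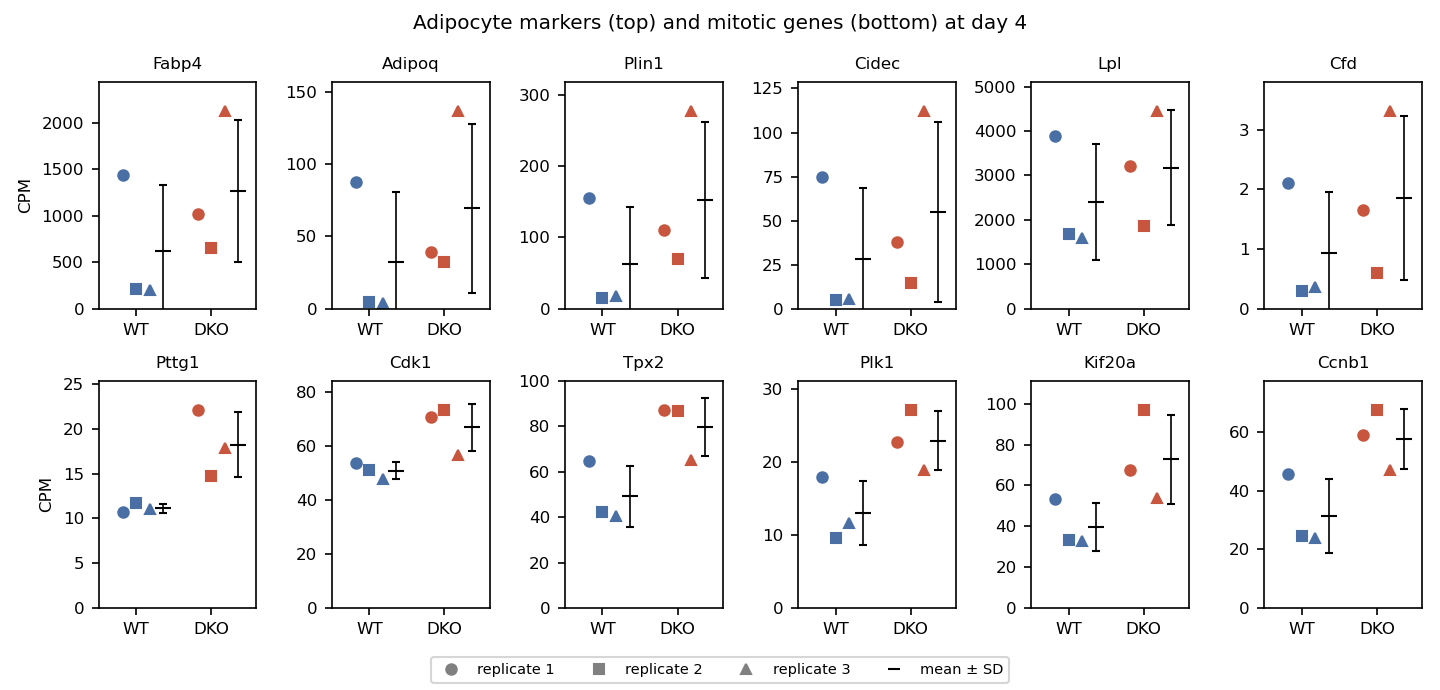
CPM of 6 adipocyte markers (top) and 6 genes of mitosis (bottom) in the 3 WT and 3 DKO libraries of day 4, with 1 marker shape per replicate number and the mean ± SD beside the points, on linear axes from 0 at which error bars that reach below are clipped. WT replicate 1 lies above WT replicates 2 and 3 in all 6 adipocyte markers, and DKO replicate 3 is the lowest or middle DKO library in the mitotic genes.

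Brown and beige adipocyte genes were low at this stage. Ucp1 had at most 13 counts in a library, with 0.114, 0.074 and 0 CPM in WT and 0, 0.037 and 0.531 CPM in DKO cells (exact permutation p = 0.9, two-sided). Cidea, a lipid droplet protein of brown fat, had at most 10 counts, with 0.143, 0 and 0.037 CPM in WT and 0.085, 0 and 0.409 CPM in DKO cells (exact permutation p = 0.7). Both were highest in DKO replicate 3, and no difference was detectable at this depth, at which 3 counts correspond to between 0.086 and 0.127 CPM. Of 36 listed brown and beige genes 28 could be tested, of which 23 were positive, with a median of 0.51 and none called. Elovl3, an elongase of very long fatty acids, stood at 7.85, 0.112 and 0.667 CPM in WT and at 4.54, 1.98 and 14.1 CPM in DKO cells (a log2 difference of 1.22 ± 1.32, adjusted p = 0.868). Ppargc1b, a coactivator of mitochondrial genes, stood at 4.48, 1.67 and 1.74 CPM in WT and at 4.96, 3.51 and 7.97 CPM in DKO cells (1.04 ± 0.47, adjusted p = 0.827). Its relative Ppargc1a stood at 11.6, 9.29 and 9.01 CPM in WT and at 16.2, 6.32 and 13.7 CPM in DKO cells, with DKO values on both sides of the WT range (0.27 ± 0.33). Ppara, which the paper names as higher in differentiating DKO MEFs, had 136, 23 and 30 counts in WT and 75, 35 and 117 in DKO cells. Adrb3, which the paper names too, had 62, 3 and 9 counts in WT and 34, 22 and 94 in DKO cells. These counts are not scaled to library size, and neither gene was called. Without WT replicate 1 and DKO replicate 3, Dio2, the enzyme that activates thyroid hormone, was the only member of 27 that was called, at 0.74 ± 0.10 (adjusted p = 0.0218). Dio2 stood at 102, 50.3 and 48.1 CPM in WT and at 86.3, 78.0 and 129.6 CPM in DKO cells, and at day 12 its log2 fold change was -1.14. The median of the list was 0.94 without WT replicate 1 and 0.16 without DKO replicate 3.

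No lipid or mitochondrial gene was called with all 6 libraries, and apart from those on the mitochondrial DNA most had positive log2 fold changes. Of fatty acid oxidation genes 31 of 36 tested members were positive, with a median of 0.36, which was 0.70 without WT replicate 1 and 0.10 without DKO replicate 3. Echs1, an enzyme of the mitochondrial oxidation spiral, stood at 83.4, 56.2 and 55.1 CPM in WT and at 119.7, 104 and 144 CPM in DKO cells, without overlap. Its log2 fold change was 0.91 ± 0.19 with all libraries (adjusted p = 0.377) and 1.01 ± 0.11 without WT replicate 1 and DKO replicate 3 (adjusted p = 0.00942). All 26 tested genes of the TCA cycle and 76 of 77 nuclear genes of oxidative phosphorylation were positive, with medians of 0.23 and 0.21, and none was called with 6 libraries or with 4. These medians were 0.41 and 0.31 without WT replicate 1, 0.11 and 0.14 without DKO replicate 3, and 0.29 and 0.27 without both libraries. The 13 genes on the mitochondrial DNA had a median of -0.05 with 4 positive and 9 negative. Of genes of lipid droplets and lipolysis 16 of 20 were positive (median 0.47), and of fatty acid and triglyceride synthesis 22 of 28 (median 0.25). The medians of these lists were 0.89 and 0.62 without WT replicate 1, and without DKO replicate 3 they were 0.08 and 0.02. In the fit of 4 libraries 3 and 1 of these were called higher, namely Plin1, Plin4 and Mgll in the former list and Gpam in the latter. The summed level of the oxidative phosphorylation list was 7186, 5514 and 5598 CPM in the WT and 7268, 6228 and 7890.1 CPM in the DKO libraries, so WT replicate 1 again lay with the DKO libraries.

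**Figure D5:**
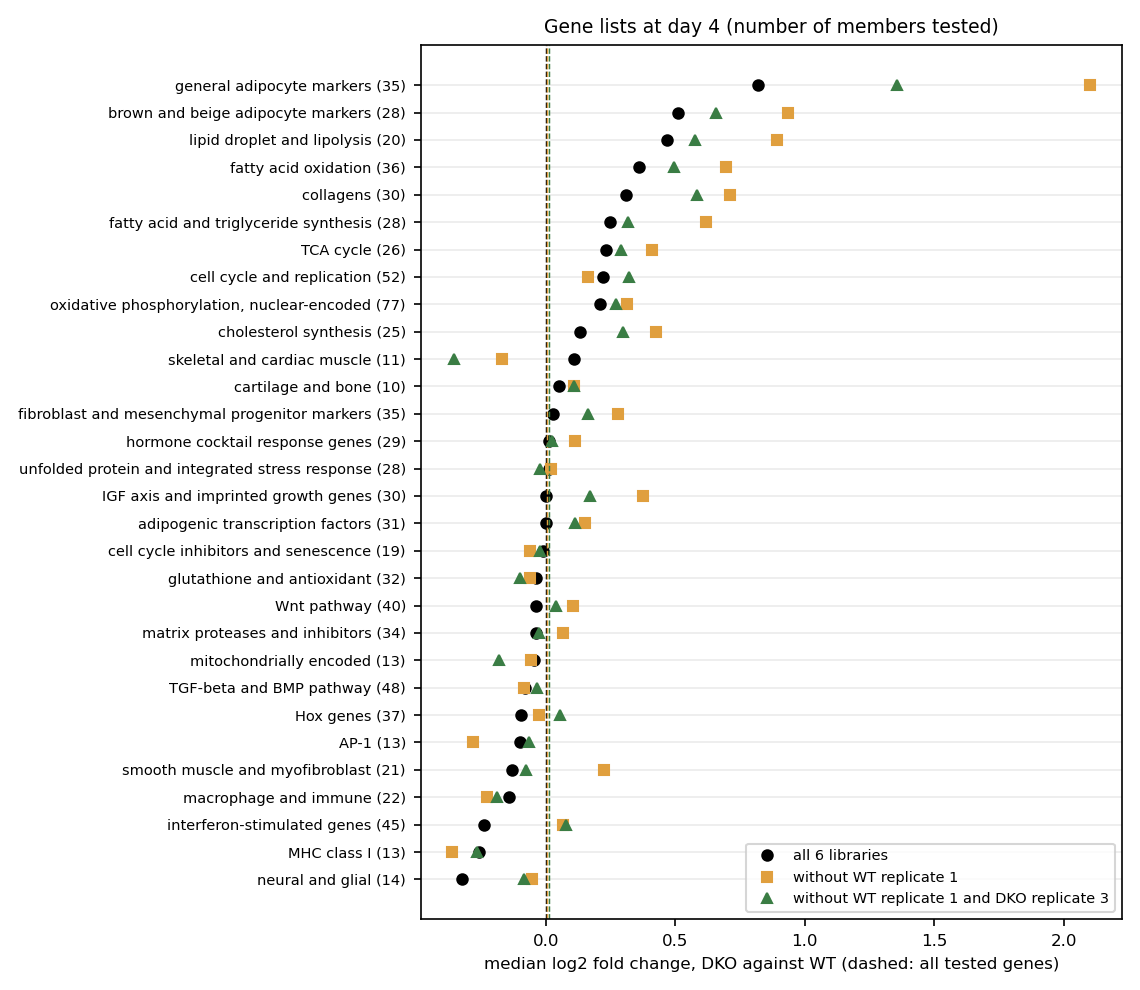
Median log2 fold change of DKO against WT cells at day 4 for the lists with at least 10 tested members (number tested in brackets), with all 6 libraries (circles) and with 1 or both of the libraries that stood apart left out. Dashed lines give the median of all tested genes, and general adipocyte markers lie farthest to the right at 0.82, 2.10 and 1.36. Oxidative phosphorylation lies between 0.21 and 0.31 in the fits drawn. The fit without DKO replicate 3 alone, in which it had 0.14, is not drawn.

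No gene of the list of cell cycle and DNA replication was called with all 6 libraries. Of its 52 tested members 39 were positive and 13 negative, with a median of 0.22. The median was 0.16 with WT replicate 1 left out, 0.38 with DKO replicate 3 left out and 0.32 with neither of them. Of the 52, 14 had an unadjusted p under 0.05 (5.91% of all genes had), and 8 had all DKO libraries above all WT libraries (5.58% of all genes had). The mitotic genes given here by library were chosen after their values were seen. Ccnb1, the cyclin that starts mitosis, stood at 45.8, 24.4 and 23.8 CPM in WT and at 58.9, 67.4 and 46.9 CPM in DKO cells. Plk1, a kinase of mitotic entry and spindle assembly, stood at 18.0, 9.52 and 11.7 CPM in WT and at 22.8, 27.1 and 18.96 CPM in DKO cells. Kif20a, a motor protein of cell division, stood at 53.4, 33.2 and 32.5 CPM in WT and at 67.6, 96.8 and 53.9 CPM in DKO cells. The genotypes did not overlap in these 3 genes, and the gap between WT replicate 1 and DKO replicate 3 was narrow in each. The log2 fold changes were 0.88 ± 0.28 for Ccnb1, 0.81 ± 0.25 for Plk1 and 0.87 ± 0.28 for Kif20a, each with an adjusted p of 0.75.

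A pair of replication genes from the same list, chosen after their values were seen, had differences near 0. Pcna, the sliding clamp of DNA polymerase, stood at 116.9, 125 and 121 CPM in WT and at 121, 130.1 and 115 CPM in DKO cells (a log2 difference of 0.01 ± 0.08). Mcm2, a part of the replicative helicase, stood at 37.1, 51.9 and 54.2 CPM in WT and at 46.0, 48.4 and 39.3 CPM in DKO cells (-0.10 ± 0.16). Both overlapped between the genotypes. Without WT replicate 1 and DKO replicate 3, 12 of the 52 genes were called higher and none lower, beside 0.76% and 0.36% of all genes. These were Ccnb1, Ccnb2, Cdc20, Aurka, Plk1, Cenpa, Cenpe, Cenpf, Kif20a, Prc1, Nusap1 and Tpx2, and all 12 fell in WT cells between day 0 and day 12. In that fit Ccnb1 was higher by 1.39 ± 0.11 on the log2 scale (adjusted p = 0.00387) and Tpx2, a spindle factor, by 1.07 ± 0.10 (adjusted p = 0.0048). On the other days the list leaned the other way, with medians of -0.67, -0.09 and -0.42 on days 0, 8 and 12. On day 12, 13 members were called lower and 1 higher, beside 4.05% and 3.92% of all genes. Ccnb1 itself had log2 fold changes of -0.95, -0.10 and -0.45 on those days.

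Matrix and fibroblast genes varied mainly between libraries. Of 30 tested collagens 20 were positive, with a median of 0.31 and none called, and the median was 0.71 without WT replicate 1 and 0.03 without DKO replicate 3. Col1a2, a chain of type I collagen, stood at 3349, 1240.4 and 1399 CPM in WT and at 2158, 1799.5 and 3831 CPM in DKO cells (a log2 difference of 0.38 ± 0.46, adjusted p = 0.883). Col3a1 stood at 6447, 3007 and 3141 CPM in WT and at 3889, 6330.5 and 6294 CPM in DKO cells (0.39 ± 0.34, adjusted p = 0.858). In both genes WT replicate 1 was again more than 2-fold above the other WT libraries. Among matrix proteases and their inhibitors 15 of 34 were positive, and 5 had all DKO libraries below all WT libraries (5.96% of all genes had). Mmp14, a membrane-bound collagenase, stood at 454, 655 and 663 CPM in WT and at 379, 299 and 337 CPM in DKO cells. Its log2 fold change was -0.81 ± 0.18 (adjusted p = 0.377), and -0.96 ± 0.14 without WT replicate 1 and DKO replicate 3 (adjusted p = 0.0255). Mmp2, a gelatinase, stood at 853, 895 and 859.7 CPM in WT and at 759, 483 and 669 CPM in DKO cells (-0.45 ± 0.17, adjusted p = 0.811), and Mmp3 stood at 51.1 to 61.4 CPM and at 45.4 to 62.6 CPM. Of the fibroblast and progenitor markers 20 of 35 were positive with a median of 0.03. Igfbp5, which binds insulin-like growth factors, stood at 677, 527 and 502 CPM in WT and at 289, 322 and 571 CPM in DKO cells (-0.53 ± 0.27, adjusted p = 0.827), and was called lower in the fit of 4 libraries (-0.75 ± 0.11, adjusted p = 0.0297). Sfrp2, a secreted Wnt antagonist, was called higher there (1.21 ± 0.13, adjusted p = 0.0118) and had a log2 fold change of 0.77 ± 0.42 with all 6.

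Immune genes leaned lower in DKO cells without any call. Of 22 tested macrophage and immune genes 7 were positive and 15 negative, with a median of -0.14, and 5 had all DKO libraries below all WT libraries (5.96% of all genes had). Their summed level was 5937 to 6692 CPM in the WT and 4859 to 6201 CPM in the DKO libraries, and most of it came from a single gene, Lyz2. Ptprc, the leukocyte surface protein CD45, stood at 19.8, 25.9 and 22.98 CPM in WT and at 18.1, 17.1 and 15.6 CPM in DKO cells (a log2 difference of -0.44 ± 0.13, adjusted p = 0.74). Csf1r, the receptor of a macrophage growth factor, overlapped between the genotypes at 145, 120.2 and 115 CPM in WT and 116, 97.6 and 144 CPM in DKO cells. Mrc1, another abundant member, did not lean lower. It had 17098, 3155 and 2802 counts in WT and 5393, 4305 and 10379 counts in DKO cells, not scaled to library size. WT replicate 1 was its highest library and WT replicates 2 and 3 were its lowest. Cd14, a coreceptor for bacterial lipopolysaccharide, stood at 16.1, 83.2 and 84.7 CPM in WT and at 34.1, 32.0 and 14.6 CPM in DKO cells. It thus was lowest in the very libraries that were high in adipocyte markers, with a log2 fold change of -1.20 ± 0.65 with all 6 libraries and of -1.34 ± 0.10 without WT replicate 1 and DKO replicate 3 (adjusted p = 0.00261). Mmp8, a neutrophil collagenase, had the same pattern, at 1.17, 20.4 and 17.8 CPM in WT and at 3.69, 2.88 and 0.858 CPM in DKO cells. Interferon-stimulated genes had a median of -0.24 with 12 of 45 positive, which became 0.07 with 24 of 45 positive without WT replicate 1. Genes of neural and glial cells (4 of 14 positive, median -0.32) and MHC class I genes (2 of 13, median -0.26) had no call either. Their medians were -0.05 (6 of 14 positive) and -0.36 without WT replicate 1, and without both libraries -0.09 and -0.27.

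The remaining lists had no called member with all 6 libraries. With all 6 libraries the medians were 0.13 for cholesterol synthesis (21 of 25 positive), 0.01 for the unfolded protein response, -0.04 for glutathione and antioxidant genes, -0.10 for AP-1, -0.04 for the Wnt pathway and -0.08 for the TGF-beta and BMP pathway. They were 0.003 for the IGF axis and imprinted growth genes, -0.10 for Hox genes, 0.01 for genes that answer the hormone cocktail and -0.01 for cell cycle inhibitors. Smooth muscle and myofibroblast genes had -0.13, skeletal and cardiac muscle genes 0.11, cartilage and bone genes 0.05, endothelial genes -0.24, epithelial genes 0.47 and mesothelial genes 0.70, the last 3 over 7, 7 and 9 tested genes. Several of these values moved with WT replicate 1. Without it the medians were 0.38 for the IGF axis (22 of 30 positive), 0.43 for cholesterol synthesis, 0.23 for smooth muscle genes, whose sign thus turned, and -0.28 for AP-1. In the fit of 4 libraries Cdkn1c and Cdkn2c (cell cycle inhibitors), Sfrp1, Itga7 and Pde3b were called higher, and Gclc and Igfbp5 were called lower.

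The genes called without WT replicate 1 and DKO replicate 3 were set beside the course of WT cells over time. WT cells of day 12 had 2480 of 15684 genes higher than at day 0 (15.8%) and 2236 lower (14.3%). Of the 118 genes called higher in DKO cells of day 4 in the fit of 4 libraries, 112 could be placed, and 59 of these (52.7%) rose in WT cells by day 12 and 36 (32.1%) fell. Of the 56 called lower, 53 could be placed, and 5 (9.43%) rose and 18 (34.0%) fell. Over all genes of that fit 15.4% rose and 13.3% fell. Hp, the hemoglobin-binding protein haptoglobin, was among those called higher, at 255, 36.1 and 37.7 CPM in the WT and 326, 453 and 509.7 CPM in the DKO libraries. Adcy5, an adenylate cyclase that makes cyclic AMP, stood at 13.5, 2.79 and 2.93 CPM in WT and at 22.7, 35.0 and 32.6 CPM in DKO cells. In these 2 genes, chosen after their values were seen, the DKO libraries lay above all WT libraries, WT replicate 1 included, with log2 fold changes of 1.97 ± 0.81 and 2.21 ± 0.65 over all 6 (adjusted p = 0.827 and 0.748).

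Whether the DKO effect of day 4 differed from that of another day was tested with a term for genotype and day combined. Against day 0 none of 16436 genes was called (0%), with 1185 at an unadjusted p under 0.05 by edgeR and 7 genes called by DESeq2. Against day 8 none of 16047 was called (0%), with 371 at an unadjusted p under 0.05 and none by DESeq2. Against day 12 there were 4 of 16281 (0.0246%), with 1836 at an unadjusted p under 0.05. Pttg1, securin, the inhibitor of chromosome separation, had a log2 fold change of 0.71 at day 4 and of 2.97 at day 12. It stood at 10.7, 11.7 and 11.0 CPM in WT and at 22.1, 14.8 and 17.9 CPM in DKO cells of day 4, and at 2.64 to 3.15 CPM and 22.8 to 25.1 CPM at day 12. Ncan, a proteoglycan known from the nervous system, stood at 3.17, 3.68 and 3.26 CPM in WT and at 0.848, 1.01 and 1.02 CPM in DKO cells of day 4, a log2 fold change of -1.81 without overlap. At day 12 its WT libraries stood at 3.64 to 4.68 CPM and its DKO libraries at 4.53 to 5.11 CPM, and they overlapped (0.20). Emb, the adhesion protein embigin, and Kbtbd11, a protein of the Kelch family, had log2 fold changes near 0 at day 4 (0.002 and -0.18) and of -1.04 and 1.01 at day 12. Without WT replicate 1 the number of genes called against day 12 was 449, and without both libraries it was 610.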

How the data were processed

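RNA of 6 MEF cultures was sequenced as 50 bp paired-end reads. The methods name a strand-specific total RNA kit and the labels polyA RNA. Per the labels, the authors used bcl2fastq 2.17, cutadapt 1.18, STAR 2.7.0f, RSEM 1.3.0 and mm10, and they deposited RSEM's expected counts per gene without normalization or pooling. Reads that match several genes are split by RSEM, which leaves 5.49% to 7.07% of a library's values with decimals. Values were rounded and analysed in R 4.3.3 with edgeR 4.0.16 (filterByExpr, TMM, robust quasi-likelihood fit of the 6 libraries with genotype as the only term, Benjamini-Hochberg adjustment). Thresholds were an adjusted p under 0.05 and a 1.5-fold difference. CPM come from 1 TMM normalization of the 24 MEF libraries. Levels are not scaled to gene length, so they compare libraries and not genes. A gene without counts in a genotype was set to 3 counts per library for a lower bound of its fold. All gene identifiers matched GENCODE M21. Copies were found with blastn 2.17.0 (at least 95% identity over 80% of the copy).

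Members, the 36 gene lists and the tests were chosen with earlier results of these data known. Named genes were taken from HMGN and sex-linked genes, genes the study names for RNA-seq, the fixed cell type markers and up to 5 interaction genes per direction. Further sources were called genes (the 10 with the smallest p in each direction without overlap, and the 5 with the largest fold change of at least 5 CPM). Per list, up to 6 called members or the 2 most abundant were taken. Not every gene of these groups is given. Other genes of the lists, such as those of mitosis, were chosen after their values were seen. Alternatives were DESeq2 1.42.0, limma-voom 3.58.1 with quantile normalization, library size scaling, other filters and thresholds, 1 fit of 24 libraries, a replicate block and leaving out libraries. The day 4 comparison (edgeR, limma-voom and DESeq2) and the interaction with day 0 (edgeR) were first run on simulated data. The other interactions, the refits and the permutation tests were not. All columns matched a sample. The deposited table of the preadipocyte libraries was not used here.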

Additional observations from a re-analysis of the deposited data

Results flagged for a closer look

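In 4 genes the difference between DKO and WT cells at day 4 was not the same as at day 12, by edgeR's test of the interaction between genotype and day (Benjamini-Hochberg adjusted over 16281 genes). The difference of the log2 fold changes, day 4 minus day 12, was -2.25 ± 0.20 (SE) for Pttg1 (adjusted p = 0.00159), with higher DKO levels in 3 of 3 libraries on both days. For Emb it was 1.05 ± 0.11 (adjusted p = 0.00645), where the log2 fold change was 0.002 at day 4 and -1.04 at day 12. Ncan had -2.0 ± 0.24 (adjusted p = 0.0155), with 3 of 3 DKO libraries below all WT libraries at day 4 and a log2 fold change of 0.20 at day 12 (adjusted p = 0.38). For Kbtbd11 it was -1.17 ± 0.16 (adjusted p = 0.0291), with log2 fold changes of -0.18 and 1.01. Ncan and Kbtbd11 stood below 5 CPM in all 6 libraries of day 4.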

How the results depend on the processing

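The 3 higher and 11 lower genes became 39 and 52 with DESeq2, 6 and 11 with limma-voom, 12 and 21 without a filter on low counts, 30 and 27 in 1 fit of 24 libraries, and 2 and 3 with the replicate block. Leaving out libraries gave 2 to 118 higher and 3 to 56 lower genes, the highest counts being those without WT replicate 1 and DKO replicate 3. With the block, Hmgn2, Gm8730, Gm9625, Gm3375 and Gm45104 stayed called. Same-numbered libraries correlated at -0.26, 0.44 and -0.55 after removal of the genotype means, and not every library correlated best with its own number. With 3 libraries per genotype, 2 of which stood apart, these values cannot decide whether the replicate numbers are a pairing. The main fit treats them as unpaired.

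For the interaction with day 12, 4 calls became 128 with DESeq2, 1 in the fit of 24 libraries, 1 with the block and between 2 and 610 with libraries left out. With day 0, 0 calls became 7 with DESeq2 and 1 in the fit of 24, and with day 8 they ranged from 0 to 1 with libraries left out. The cause of these changes was not tested.

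Uncalled genes whose sign turned with a library left out had log2 fold changes from -0.31 to 0.14 (Hmgn3), -0.0047 to 0.58 (Ppargc1a), -0.076 to 1.10 (Cox7a1), -0.024 to 3.38 (Ear2), -0.011 to 0.96 (Col1a2), -0.21 to 0.16 (Anxa3), -0.12 to 3.34 (Cidec), -0.0051 to 0.19 (Thy1), -0.36 to 0.67 (Ttn), -1.26 to 0.47 (Cdh5), -0.25 to 0.032 (Csf1r) and -1.16 to 0.67 (Cdh1). Cdh1 also had 0.016 with DESeq2 and 0.00017 with a filter of 0.5 CPM.

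With 3 libraries per genotype and 20871043 to 33026044 counts each, 3 counts correspond to 0.086 to 0.127 CPM, below which no difference was detectable. Adipocyte markers overlapped between the genotypes. Counts per gene neither resolve exons nor assign reads of near-identical copies with certainty. Refits without a library have fewer libraries, so a lost call is partly by construction.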

Other observations

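A group of genes called by DESeq2 but mostly not by edgeR lay close together in the genome. In simulated day 4 data DESeq2 made 20 false calls when no gene was changed, and edgeR 0. With 200 genes changed 4-fold DESeq2 made 39 false calls beside 163 true ones, and edgeR 15 beside 166. Each test had its own simulated data, drawn gene by gene without the split seen between the real libraries. These numbers therefore do not rank the tests on the real data. Some of DESeq2's calls here may be false. Of the 91 genes of 15475 that DESeq2 called at day 4 (0.588%), 31 (34.1%) started within 2 Mb of another called gene, while 14.5% of the 15384 genes not called did so. On chromosome 7, between 139894696 and 141429491 (mm10), 6 of 36 tested genes were called and all 6 were higher in DKO cells. They are Kndc1, Tubgcp2, Fuom, Echs1, Deaf1 and Cend1, and in all 6 the DKO libraries lay above all WT libraries. Tubgcp2, a part of the complex that starts microtubules, stood at 31.9, 33.2 and 34.7 CPM in WT and at 51.1, 52.7 and 51.2 CPM in DKO cells (0.63 ± 0.08 on the log2 scale, edgeR's adjusted p = 0.0639, DESeq2's 3.79e-07). Deaf1, a transcription factor, stood at 29.1, 26.8 and 29.1 CPM in WT and at 40.5, 45.6 and 46.1 CPM in DKO cells (0.63 ± 0.09, edgeR's adjusted p = 0.1003). In the libraries of day 12, which may come from the same embryos, the 6 genes had log2 fold changes of 0.49 to 2.25.

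On chromosome 14, between 49023930 and 52163546, 6 of 27 tested genes were called by DESeq2 and all 6 were lower, namely Gm49204, Gm26782, Pnp, Pnp2, Ang and Rpgrip1. Pnp, which splits purine nucleosides, stood at 154, 157 and 148 CPM in WT and at 105, 99.3 and 87.9 CPM in DKO cells (-0.66 ± 0.09, edgeR's adjusted p = 0.0994). Ang, the ribonuclease angiogenin, stood at 14.2, 8.36 and 7.30 CPM in WT and at 3.86, 2.77 and 4.29 CPM in DKO cells (-1.46 ± 0.30, edgeR's adjusted p = 0.338), and had log2 fold changes of -1.56, -1.80 and -1.59 at days 0, 8 and 12. On chromosome 3, between 35955436 and 36482299, 4 of 10 tested genes were called and all 4 were higher (8430422M14Rik, Gm43079, Gm43205 and 1810062G17Rik). Both Hmgn1 (chromosome 16) and Hmgn2 (chromosome 4) lie on other chromosomes than these 3 groups, which were picked after the calls were seen. There were 10 such groups in all. In the other group with more than 2 genes, on chromosome 14 between 54369442 and 54877550, the directions were mixed, with Slc7a7 higher and Mmp14 and Ppp1r3e lower, and the remaining 6 held 2 genes each. No test was run on the grouping.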
